A study of Mus musculus with 108 samples.

Results

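Interferon and inflammatory response genes were followed through the chromatin states of the mouse liver at 3 months of age and at 12 months under 2 diets. The set comprised 49 genes named by symbol, out of 26089 genes with a curated RefSeq transcript, and was arranged into 8 groups by role. Their transcription start sites (TSS) lie on 16 chromosomes, 47 members are annotated as protein-coding, and Mx1 and Mx2 are annotated as transcribed pseudogenes in the reference strain. Sting1 and its alias Tmem173 are the same gene, and the first symbol is used here. The rule that names them uses no measured value. Where 3 values or states follow each other below, they are those of the groups SD 3m, SD 12m and CR 12m, in this order.

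The study profiled H3K4me3, H3K27me3, H3K27ac and H3K4me1 by ChIP-seq in formalin-fixed, paraffin-embedded livers of inbred female C57BL/6 mice. Mice on a standard diet were taken at 3 months (SD 3m, 8 mice, 30 libraries) and at 12 months (SD 12m, 8 mice, 29 libraries). Mice of the third group were fed 30% fewer calories from 3 months of age and taken at 12 months (CR 12m, 9 mice, 29 libraries). Mice at 6 months were not analysed here. No genetic change, infection or agent is named in the labels for any of these groups, so the genes were recorded in livers without a labelled interferon or inflammatory stimulus.

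The authors merged the libraries of each group and used ChromHMM, a hidden Markov model of mark combinations, to give every bin of 200 bp 1 of 8 states. State 1 (active TSS) carries H3K4me3 and H3K27ac, and state 2 (flanking TSS) carries H3K4me1 in addition. States 3, 4 and 5 are enhancer states, also formed by combinations of H3K4me3, H3K27ac and H3K4me1 without H3K27me3. States 3 and 4 are called active enhancers and state 5 poised enhancer. State 6 carries H3K27me3 only and is called Polycomb-repressed, state 7 has weak H3K4me3 with minimal H3K27me3, and state 8 has none of the marks. As each group has 1 segmentation, how far mice of a group differ is not known, and no p-value is given for any difference between groups. The number of reads behind a state is unknown.

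Interferons are secreted when a cell senses viral RNA or DNA, and they act through STAT and IRF transcription factors on genes whose products block viral replication. Bacterial products act on Toll-like receptors, which release NF-κB to the nucleus and switch on cytokines such as Tnf, Il1b and Il6. In the liver, Il6 and Il1b act on hepatocytes through Stat3 and NF-κB, and the hepatocytes then secrete acute phase proteins. Many of these genes are kept at a low level until a stimulus arrives, and their promoters can carry histone marks before that.

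At 3 months, the TSS bin of 32 of the 49 genes (65.3%) was in state 1 or 2, against 40.1% of all genes. At 12 months the number was 22 (44.9%) on standard diet, against 34.7% of all genes, and 15 (30.6%) under caloric restriction, against 30.7% of all genes. Enhancer states 3 to 5 held 13 TSS bins in SD 3m, compared with 21 in SD 12m and 28 in CR 12m. States 6 to 8 held only 4, 6 and 6, in the same order, where they held 41.8%, 41.7% and 41.1% of all genes. The remaining genes, in states 3 to 5, thus made up a growing share of all genes as well, from SD 3m to SD 12m to CR 12m. More TSS bins in enhancer states at 12 months were therefore not particular to the members. State 2 held 20 members (40.8%) at 3 months, against 33.3% of 108 other genes of the same pathways and 9.86% of all genes. At 12 months it held 9 members (18.4%) on standard diet, against 4.91% of all genes, and 6 (12.2%) under caloric restriction, against 4.82%.

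**Figure D1:**
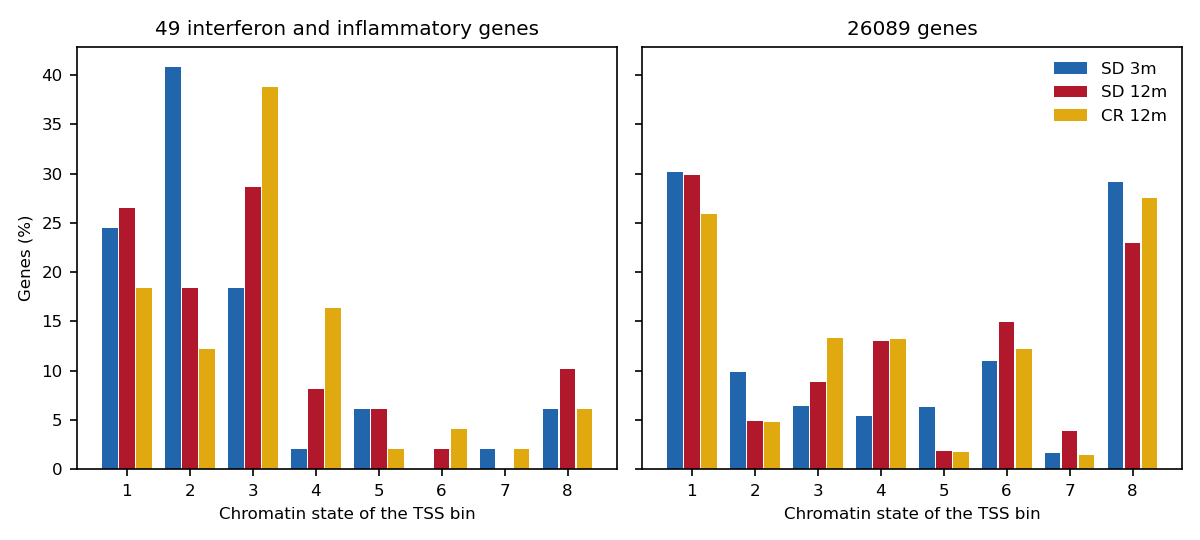
Percent of genes (vertical axis) whose TSS bin is in each of the 8 chromatin states (horizontal axis), for the 49 interferon and inflammatory genes on the left and all 26089 genes on the right, with 1 bar per group and no error bar, as each group has 1 segmentation. Among the 49 genes the bar of state 2 stands at 40.8% in SD 3m, against 18.4% in SD 12m and 12.2% in CR 12m, and the bar of state 3 at 18.4%, 28.6% and 38.8%.

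The state of the TSS bin differed between SD 12m and SD 3m at 23 of the 49 genes (46.9%), while it differed at 32.6% of all genes. Between CR 12m and SD 3m it differed at 30 (61.2%), against a background of 34.7%. When states 1 and 2 were merged, and states 3 to 5 likewise, which leaves 5 classes, the class differed at 14 members (28.6%) in SD 12m, against 23.3% of all genes, and at 23 (46.9%) in CR 12m, against 25.3%. Under the merged classes the share in SD 12m thus lay nearer to that of all genes than with 8 states. Both comparisons were made with the same SD 3m segmentation and are not independent. Between the 12-month groups the state differed at 16 members (32.7%), against 26.7% of all genes. The same state in all 3 groups was found at 15 members (30.6%), where 55.4% of all genes had it. SD 3m alone stood apart at 18 members (36.7%), against 17.9% of all genes.

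Of the 32 members in states 1 and 2 in SD 3m, 10 (31.2%) were outside these states in SD 12m, and 16.5% of all genes in states 1 and 2 were. In CR 12m, 17 of the 32 (53.1%) were outside them, against 25.9%. Most were then in an enhancer state, with 9 of the 32 in SD 12m, against 15.1% of all such genes, and 15 of the 32 in CR 12m, against 24.5%. None of the 17 members that started elsewhere was in state 1 or 2 at 12 months in either diet, where 2.07% of such genes were in SD 12m and 1.7% in CR 12m. States 6 to 8 were entered by 3 of 45 members in SD 12m, against 4.27% of all genes outside them, and by 4 of 45 in CR 12m, against 4.63%. Set against SD 12m, CR 12m had 8 of 22 members (36.4%) outside states 1 and 2 that were in them, where 17.1% of all such genes were, and 1 of 27 (Relb) in them that was not, where 2.93% were. Since state 2 is left more often than state 1 across the genome, the starting states were also taken apart. Of the 20 members that started in state 2, 6 (30.0%) were outside both states in SD 12m, close to the 24.8% of all such genes, and 9 (45%) in CR 12m, against 36.8%. Of the 12 members that started in state 1, 4 (33.3%) were outside both states in SD 12m and 8 (66.7%) in CR 12m, against 13.8% and 22.4% of all such genes.

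Around the TSS, a window of 21 bins reaching 2 kb to either side was read in the same way. At 6 members (Stat2, Ifit1, Oasl1, Myd88, Il1b and Il18) the TSS of another gene lies within it. The 49 windows held 474 bins in states 1 and 2 in SD 3m, compared with 256 in SD 12m and 184 in CR 12m. These numbers were 54.0% and 38.8% of the number in SD 3m. Over all genes the numbers in SD 12m and CR 12m were 64.7% and 56.9% of that in SD 3m. Per member, the median was 11 bins in SD 3m, against 4 in SD 12m and 0 in CR 12m. Over all genes the median was already 0 in SD 3m. Fewer bins in these states than in SD 3m were found in SD 12m at 34 of the 36 members that had any (94.4%), against 87.9% of all genes that had any, and in CR 12m at 35 of the 36 (97.2%), against 92.2%. A narrower zone was thus found at most genes that had such a bin in SD 3m, members or not. In CR 12m, 15 of the 36 members (41.7%) had no bin left in states 1 and 2, against 13.7% of all such genes, and in SD 12m 6 (16.7%), against 9.1%. Most windows were in states 1 to 5 throughout, with all 21 bins in these states at 41 members in SD 3m, at 40 in SD 12m and at 39 in CR 12m. Over all 26089 genes, 13034 windows were wholly in these states in SD 3m and 13651 in SD 12m. The mean number of such bins per member was 19.3, 18.1 and 18.1, and over all genes it was 12.1 in SD 3m. No such bin was left at 4 of 48 members in SD 12m (8.33%), against 4.55% of all genes that had any, and at 5 of 48 in CR 12m (10.4%), against 5.31%. They were Oas2, Oas3, Ifi44 and Il6 in both 12-month groups, and Casp1 in CR 12m.

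The whole gene body was in states 1 to 5 at 31, 32 and 31 members. Over all 26089 genes it was at 7749 in SD 3m and at 8900 in SD 12m. Compared with SD 3m, the percent of the gene body in these states was lower at 12 members (24.5%) in SD 12m, against 18.4% of all genes, and higher at 7 (14.3%), against 20.7%. In CR 12m it was lower at 13 members (26.5%), against 16.4%, and higher at 7 (14.3%), against 23.3%. Among members whose TSS class differed, the gene bodies of Casp1, Ifi44, Il6 and Oas2 had 0% in CR 12m, against 100%, 21.9%, 20% and 11.1% in SD 3m. Gbp3 had 100%, 100% and 13.4%, Tlr2 100%, 57.1% and 32.1%, and Tlr4 41.7%, 12.5% and 12.5%. Saa1 had 7.69%, 100% and 100%, and Saa2 0%, 0% and 100%. Of the others, Sting1, Irf7, Irf9, Stat3, Ifit1, Ifit2, Isg15, Il1a and Socs3 had 100% in each group. Irf8 had 86.4% in SD 12m, Relb 90.6% and Il18 89.05% in SD 3m, and each had 100% in the other groups. Mx2 had 88.0%, 100% and 88.8%.

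**Figure D2:**
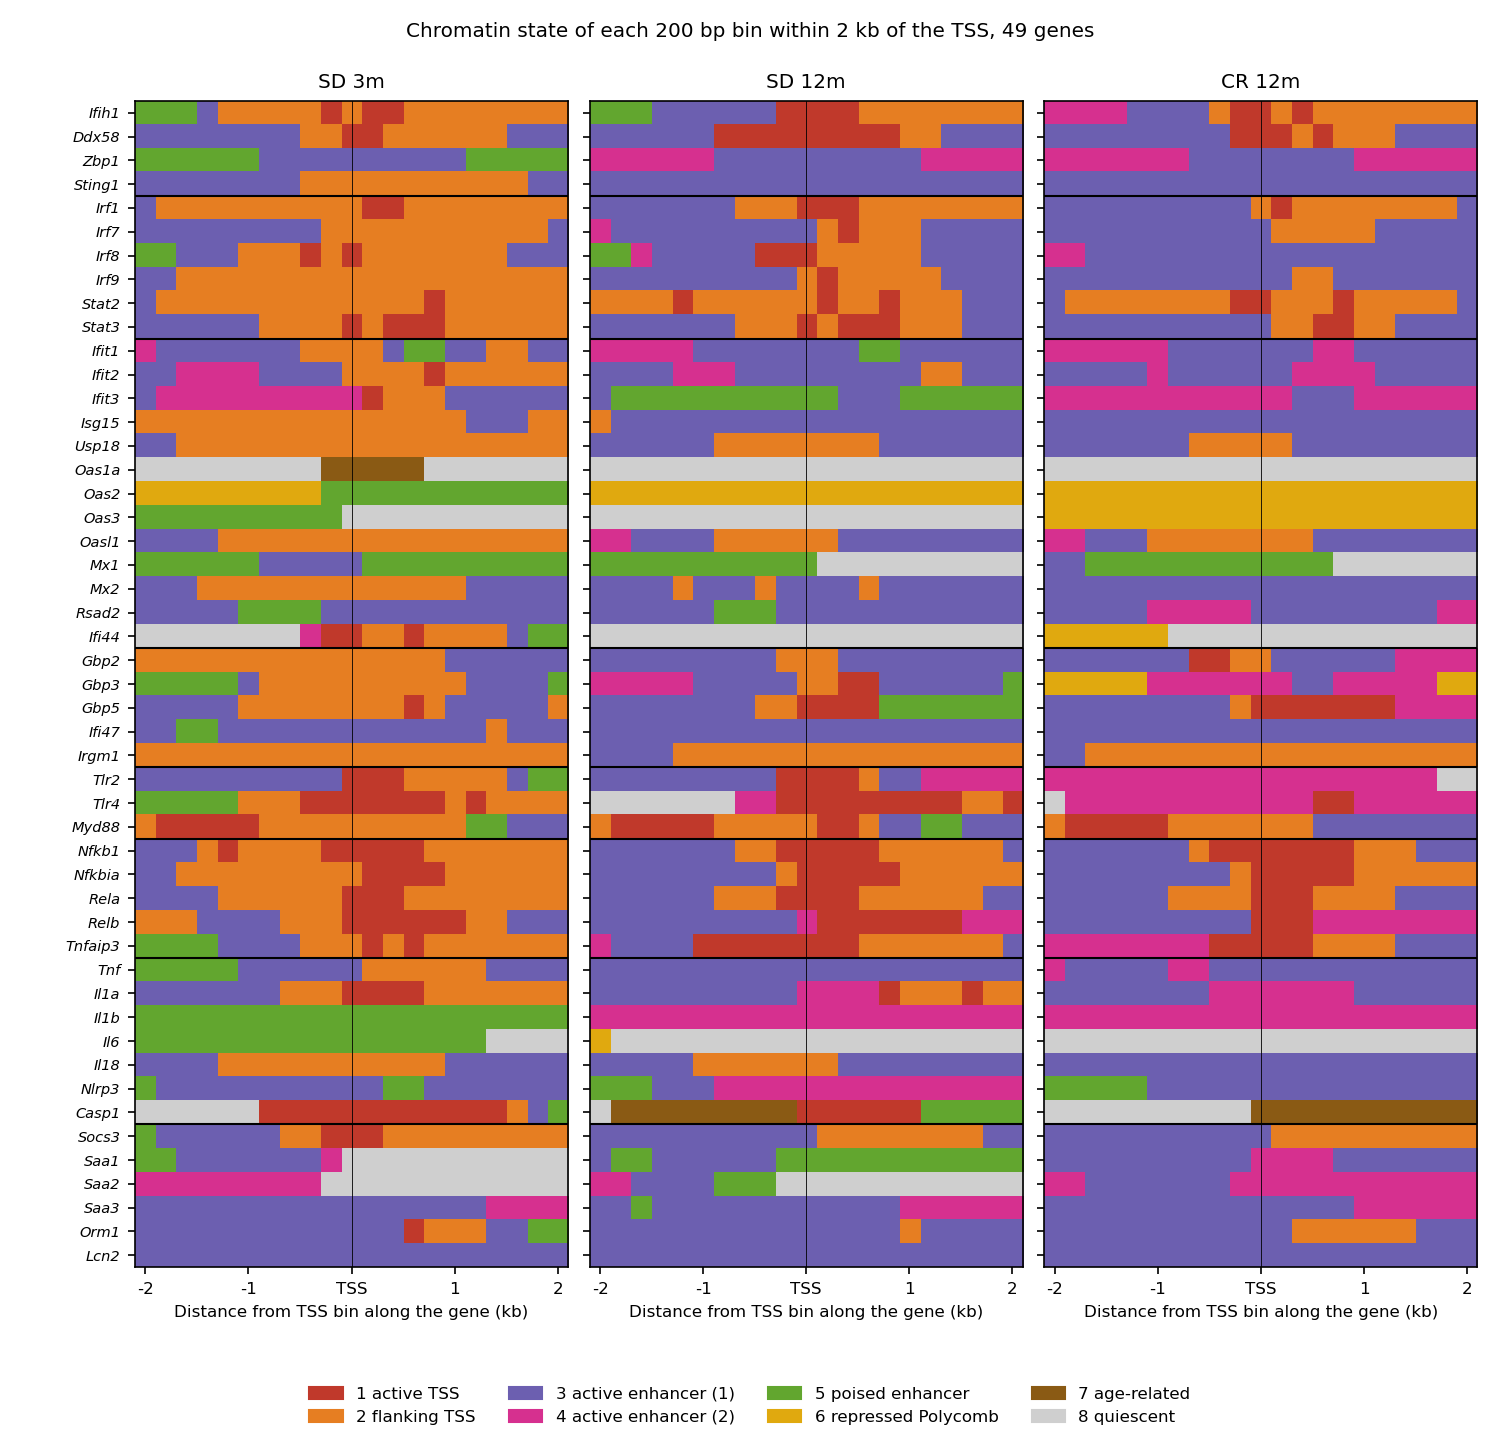
Chromatin state of each 200 bp bin within 2 kb of the TSS, with 1 row per gene, distance along the gene in kb on the horizontal axis and 1 panel per group. Black lines separate the 8 role groups, in the order sensors, transcription factors, antiviral effectors, GTPases, Toll-like receptors, NF-κB, cytokines and acute phase. The red and orange of states 1 and 2 fill 474 bins in SD 3m, compared with 256 in SD 12m and 184 in CR 12m, and the violet and pink of enhancer states stand in most of their places.

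H3K4me3 libraries numbered 7 in SD 3m, against 8 in SD 12m and 5 in CR 12m, and H3K27ac libraries 8, 7 and 9; the part of these numbers, and of read depth, in the counts above was not tested. State 2 covered 1.13% of the bins of the genome in SD 3m, compared with 0.425% in SD 12m and 0.361% in CR 12m. Liver tissue is a mixture of cells, and in bulk chromatin fewer cells of a type and less of a mark per cell cannot be told apart. All 6 hepatocyte markers (Alb, Ttr, Apoa1, Apob, Tat and Hnf4a) had their TSS bin in states 1 to 5 in every group. Of 8 markers of Kupffer cells, the resident macrophages of the liver, 3, 2 and 2 did so in SD 3m, SD 12m and CR 12m. Csf1r and Cd68 were in state 3 throughout, Clec4f and Vsig4 in state 6 throughout, and Adgre1 in state 5, 6 and 8. In the paper, the Polycomb-repressed state had the highest enrichment of all states on chromosome X, where Vsig4 lies. Of 7 lymphocyte markers 2, 2 and 1 had their TSS bin in states 1 to 5. The pan-leukocyte gene Ptprc was in state 5, 5 and 8, and Cd79a in state 4 in each group. Of 5 neutrophil markers 1 did so in each group. Of 5 stellate cell markers 2, 1 and 0 did so, and of 5 endothelial markers 3, 3 and 5. The part of cell composition in the results was not tested.

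Sensors of viral nucleic acid come first in the pathway. Ifih1 (MDA5) and Ddx58 (RIG-I) bind viral RNA in the cytosol, and both kept a TSS bin in state 1 or 2 in all groups. The Ifih1 window held 17 bins in these states in SD 3m, against 12 in SD 12m and 13 in CR 12m, and that of Ddx58 held 10, 11 and 8. Sting1, the adaptor that relays the signal of cytosolic DNA, differed from them. Its TSS bin was in state 2 in SD 3m and in state 3 in both 12-month groups, and its window held 11 bins in states 1 and 2 in SD 3m and 0 in SD 12m and CR 12m. Its gene body remained in states 1 to 5 over 100% of its bins in every group. Zbp1, a sensor of Z-form nucleic acid, had a TSS bin in state 3 throughout, flanked by state 5 in SD 3m and by state 4 at 12 months, and 48.4%, 50% and 56.5% of its gene body was in states 1 to 5.

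The transcription factors of interferon signalling were all in state 1 or 2 in SD 3m, 5 of 6 were in SD 12m and 2 of 6 in CR 12m. Irf9 and Stat2 act together at interferon-stimulated response elements. Irf9 (chr14:55603985-55610030) had a TSS bin in state 2, 2 and 3 in SD 3m, SD 12m and CR 12m, and 19, 7 and 2 window bins in states 1 and 2. Stat2, by contrast, kept 20, 18 and 19 of 21 window bins in these states. Irf9 and Stat2 thus had zones of states 1 and 2 of unlike width in the 12-month groups. The TSS of another gene lies 1799 bp from that of Stat2, inside its window, and the nearest to Irf9 lies 12243 bp away. The part of this neighbour in the Stat2 count was not tested. Irf7, which amplifies the interferon response, had a TSS bin in state 2 in SD 3m and in state 3 in both 12-month groups, with 11, 5 and 5 window bins in states 1 and 2. Irf8, a factor of macrophages and dendritic cells, was in state 1 in both standard diet groups and in state 3 in CR 12m, and its window held 13, 8 and 0 such bins. Stat3, which carries the Il6 signal, had the same order of states, 1, 1 and 3. The longest unbroken stretch of states 1 and 2 reaching into its window spanned 6600 bp in SD 3m, 2200 bp in SD 12m and 1200 bp in CR 12m. Irf1, induced by interferon gamma, was in state 2, 1 and 2, with 20, 14 and 10 window bins.

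Antiviral effectors had the smallest share of their promoter zone left in SD 12m of all 8 role groups of members. Their 13 windows held 97 bins in states 1 and 2 in SD 3m, compared with 20 in SD 12m and 13 in CR 12m. These were 20.6% and 13.4% of the number at 3 months, against 64.7% and 56.9% over all genes. Over the 108 other pathway genes they were 58.1% and 47.0%. Of the 13 antiviral members, 7 had a TSS bin in states 1 and 2 in SD 3m and 2 in each 12-month group. Isg15 (chr4:156199424-156200818, minus strand) encodes a ubiquitin-like protein that is attached to other proteins after interferon. Its TSS bin was in state 2 in SD 3m and in state 3 in SD 12m and CR 12m, and the window held 18, 1 and 0 bins in states 1 and 2. In SD 3m 75.0% of its gene body was in states 1 and 2, and 0% was in either 12-month group, where all of it was in enhancer states. Usp18, the protease that removes Isg15 from proteins, stayed in state 2 in every group with 19, 8 and 5 window bins.

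The Ifit genes encode proteins that bind viral RNA lacking host modifications, and they form a cluster on chromosome 19. Ifit1 (chr19:34640889-34650009) and Ifit2 (chr19:34550694-34576534) both had a TSS bin in state 2 in SD 3m and state 3 in SD 12m and CR 12m. Ifit1 had 6, 0 and 0 window bins in states 1 and 2, Ifit2 11, 2 and 0, and Ifit3 4, 0 and 0. Over the whole cluster with 5 kb on either side (chr19:34545694-34655009), 63 of 548 bins were in states 1 and 2 in SD 3m, against 4 in SD 12m and 0 in CR 12m. State 8 covered 0% of it in SD 3m, compared with 5.66% in SD 12m and 15.1% in CR 12m, and enhancer states made up the rest. In the window of Ifit3 only 48.8% of the words of 50 bases occur once in the genome, as a near-identical paralog exists, so its states are uncertain.

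The bases just before the start of Isg15, Ifit1 and Ifit2 are shown because their promoters hold a match to a motif named below. Their TSS bins were in state 2 at 3 months and state 3 at 12 months under both diets. Irf7 had the same states and neither motif, and Sting1 and Mx2, also with these states, had no promoter entry. All sequences shown in this report are of members with such a match whose TSS class differed between groups. They were read from RefSeq promoters of GRCm38.p6, 5′ to 3′ on the strand of the gene, and end at the base before the start. Capitals mark matches to the core of the interferon-stimulated response element (ISRE), which is GAAA, any 2 bases and GAAA, or TTTC, any 2 bases and TTTC on the other strand, in Isg15 and Ifit1, and a match to the NF-κB site in Ifit2. Isg15 is given at chr4:156200819-156201068 on the minus strand, Ifit1 at chr19:34640744-34640888 and Ifit2 at chr19:34550444-34550693 on the plus strand. In Ifit1 the stretch stops at 145 bases, where a transcript of a neighbouring gene begins.
Isg15: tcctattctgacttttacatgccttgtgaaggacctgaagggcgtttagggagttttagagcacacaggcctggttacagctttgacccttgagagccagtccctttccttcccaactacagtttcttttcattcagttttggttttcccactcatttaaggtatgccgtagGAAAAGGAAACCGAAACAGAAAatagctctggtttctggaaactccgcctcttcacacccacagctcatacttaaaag
Ifit1: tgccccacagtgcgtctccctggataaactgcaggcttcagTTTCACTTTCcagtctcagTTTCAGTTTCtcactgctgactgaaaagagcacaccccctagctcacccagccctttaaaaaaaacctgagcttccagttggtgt
Ifit2: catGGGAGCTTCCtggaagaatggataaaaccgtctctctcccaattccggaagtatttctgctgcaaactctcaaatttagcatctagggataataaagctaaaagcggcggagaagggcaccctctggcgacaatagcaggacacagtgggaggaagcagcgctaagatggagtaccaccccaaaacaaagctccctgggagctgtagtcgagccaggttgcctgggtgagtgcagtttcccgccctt
The Isg15 stretch holds 3 overlapping matches that start between 78 and 66 bases before the TSS. The Ifit1 stretch holds 2, starting 104 and 85 bases before it, and the Ifit2 match lies 247 bases before the TSS. A match is a run of letters and does not show binding.

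Ifi44, another interferon-induced gene of the antiviral group, had a TSS bin in state 1 in SD 3m and in state 8 in SD 12m and CR 12m, and it was the 1 member with a TSS bin in states 1 and 2 in SD 3m and in states 6 to 8 under both diets. Its window held 9, 0 and 0 bins in states 1 and 2 and 8, 21 and 15 bins in state 8, and states 1 to 5 covered 21.9%, 0% and 0% of its gene body. Mx2 had a TSS bin in state 2 in SD 3m and in state 3 in both 12-month groups, with 13, 3 and 0 window bins in states 1 and 2. Mx1, its neighbour, was in state 3, 5 and 5. Oasl1, which lies apart from the other 2′-5′ oligoadenylate synthetase genes of the set, kept state 2 throughout with 17, 6 and 8 window bins. Rsad2 (viperin), an antiviral enzyme of the endoplasmic reticulum, kept state 3.

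The Oas cluster on chromosome 5 encodes enzymes that make 2′-5′ oligoadenylate and so activate RNase L. None of Oas1a, Oas2 and Oas3 had a bin in states 1 and 2 in its window in any group. The TSS bin of Oas2 was in state 5 in SD 3m and in state 6 in SD 12m and CR 12m, and the window held 9, 21 and 21 bins in state 6. Over the Oas2 gene body, state 6 covered 0% in SD 3m, against 100% in SD 12m and 58.6% in CR 12m. Oas3 had all 21 window bins in state 8 in SD 12m and all 21 in state 6 in CR 12m, although state 6 covered 25.8%, 43.55% and 21.8% of its gene body. Across the cluster (chr5:120725333-120912525), state 6 covered 19% of the bins in SD 3m, compared with 46.3% in SD 12m and 25.1% in CR 12m. State 6 in all genome bins covered 9.48%, 14.4% and 10.3%, with the same order of groups. Oas1a was in state 7, 8 and 8, but only 71.8% of the words in its window occur once, since the mouse has several Oas1 copies, and its states are uncertain.

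Guanylate-binding proteins and immunity-related GTPases attack the vacuoles of intracellular pathogens after interferon gamma. Irgm1, a regulator of the family, had the widest zone of states 1 and 2 around the TSS of the 49 genes in SD 3m. It had 21, 17 and 19 window bins in these states across the groups and stretches of 7000, 4400 and 3800 bp. The TSS bin of Gbp5 was in state 2, 1 and 1, that of Gbp2 in state 2 in all groups, and that of Ifi47 in state 3 in all groups. Within the Ifi47 gene body, however, states 1 and 2 covered 53.4%, 7.77% and 1.94%. In the window of Ifi47 81.8% of the words occur once in the genome. Gbp3 (chr3:142560044-142573213) had a TSS bin in state 2 in both standard diet groups and in state 4 in CR 12m, where its window held 10, 4 and 0 bins in states 1 and 2 across the groups. State 6 covered 0%, 0% and 86.6% of the Gbp3 gene body. States 1 to 5 covered 61.4%, 84.1% and 19.3% of the Gbp2 gene body, and it was in state 8 over 0% in SD 3m, against 15.9% in SD 12m and 80.7% in CR 12m. Over the Gbp2, Gbp3 and Gbp5 cluster (chr3:142491934-142643008), state 6 covered 28.4% in SD 3m, compared with 21.1% in SD 12m and 57.6% in CR 12m, and enhancer states 60.4%, 63.9% and 19.3%. For state 6 the standard diet groups thus lay closer to each other than to CR 12m.

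The Gbp3 promoter, which also holds a match, is shown for comparison with those above, as its TSS bin differed in CR 12m only. It lies at chr3:142559794-142560043 on the plus strand, and capitals mark 2 overlapping ISRE matches that start 45 and 39 bases before the TSS.
Gbp3: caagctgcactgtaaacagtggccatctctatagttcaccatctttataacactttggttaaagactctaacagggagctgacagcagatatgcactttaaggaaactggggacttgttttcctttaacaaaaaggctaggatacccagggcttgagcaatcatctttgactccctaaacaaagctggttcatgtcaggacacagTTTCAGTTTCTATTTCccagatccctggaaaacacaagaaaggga
In the window of Gbp3 89.4% of the words occur once in the genome.

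**Figure D3:**
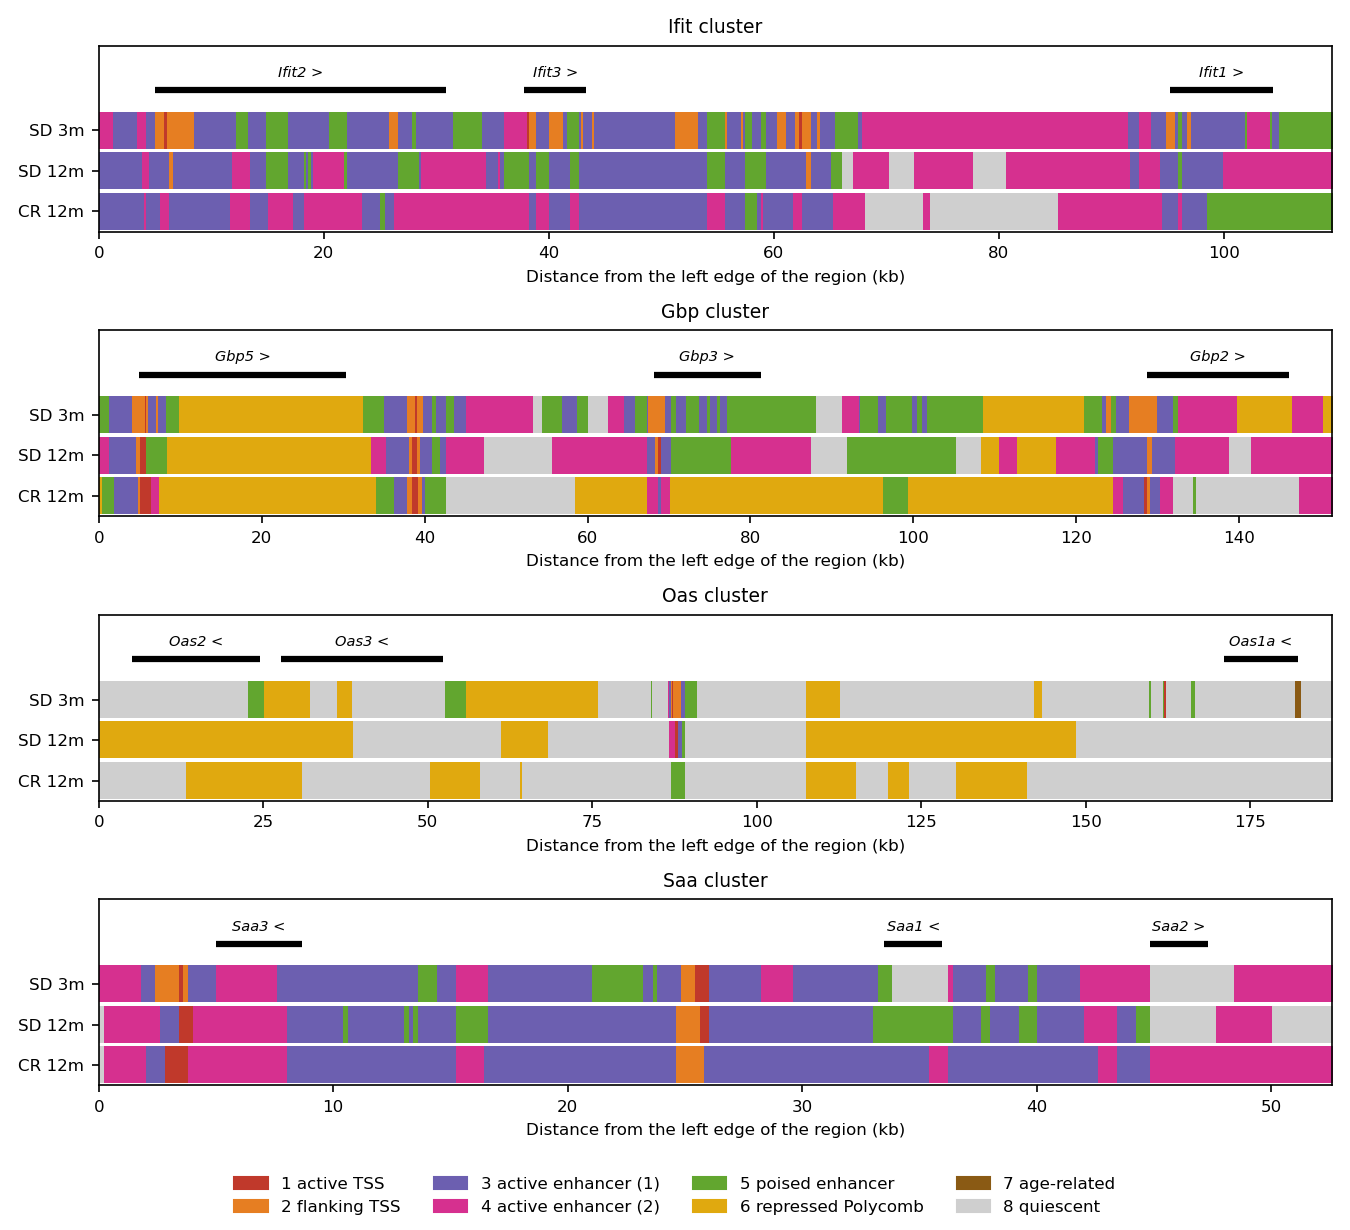
Chromatin states along the Ifit, Gbp, Oas and Saa clusters with 5 kb on either side of the outermost members, with distance from the left edge in kb on the horizontal axis, 1 track per group and black bars for the gene bodies of the members, with arrowheads for their direction. States 1 and 2 fill 63, 4 and 0 bins of the Ifit cluster in SD 3m, SD 12m and CR 12m, and state 6 fills 57.6% of the Gbp cluster in CR 12m and 46.3% of the Oas cluster in SD 12m.

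At both Toll-like receptors of the set, the TSS class differed in CR 12m only. Tlr2, a receptor for bacterial lipoproteins, and Tlr4, the receptor for lipopolysaccharide, both had a TSS bin in state 1 in SD 3m and SD 12m and in state 4 in CR 12m. Tlr2 (chr3:83836272-83841608, minus strand) had 8, 5 and 0 window bins in states 1 and 2, and Tlr4 (chr4:66827551-66846581) had 16, 12 and 2. States 1 to 5 covered 100% of the Tlr2 gene body in SD 3m, against 57.1% in SD 12m and 32.1% in CR 12m. Of the Tlr4 gene body, 41.7%, 12.5% and 12.5% was in these states, and the rest was in state 8 in SD 3m and CR 12m and in state 7 in SD 12m. Myd88, the adaptor through which both receptors signal, kept state 2 with 16, 14 and 13 window bins.

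The bases before the Tlr2 start (chr3:83841609-83841858, minus strand) are shown because they hold a match. Tlr4, with the same states at its TSS bin, had no promoter entry. Capitals mark 2 overlapping matches to the NF-κB site, 173 and 172 bases before the TSS.
Tlr2: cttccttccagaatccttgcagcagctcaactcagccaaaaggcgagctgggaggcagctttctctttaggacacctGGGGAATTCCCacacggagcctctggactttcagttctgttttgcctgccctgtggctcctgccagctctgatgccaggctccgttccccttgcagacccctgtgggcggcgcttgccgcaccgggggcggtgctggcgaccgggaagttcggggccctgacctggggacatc

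NF-κB genes had 5, 4 and 5 of 5 TSS bins in states 1 and 2. Nfkb1 and Rela, the subunits of the main dimer, were in state 1 in every group, with 18, 13 and 11 window bins for Nfkb1 and 17, 13 and 11 for Rela. The inhibitors Nfkbia and Tnfaip3, which are themselves NF-κB targets and end the response, were both in state 2 in SD 3m and in state 1 in SD 12m and CR 12m. Nfkbia had 19, 12 and 12 window bins and Tnfaip3 13, 15 and 9. Relb, a subunit of the alternative pathway, was the 1 member in state 1 in SD 3m and CR 12m and in another class in SD 12m, where its TSS bin was in state 4. The next bin of Relb along the gene was in state 1 in SD 12m, and its window held 14, 7 and 3 bins in states 1 and 2.

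Cytokine and inflammasome genes had 44 window bins in states 1 and 2 in SD 3m, compared with 20 in SD 12m and 0 in CR 12m. Their number of TSS bins in these states was 3, 2 and 0 of 7. Il1a, the alarmin form of interleukin 1, was in state 1 in SD 3m and in state 4 in SD 12m and CR 12m, with 14, 7 and 0 window bins. Il18 (chr9:50554700-50581841), a cytokine released by the inflammasome, was in state 2 in SD 3m and SD 12m and in state 3 in CR 12m, with 11, 7 and 0. Casp1, the protease that cuts Il1b and Il18 into their active forms, was in state 1 in both standard diet groups and in state 7 in CR 12m. Its window held 13, 6 and 0 bins in states 1 and 2. The Casp1 gene body was in states 1 to 5 over 100% of its length in SD 3m and 37.8% in SD 12m, and wholly in state 7 in CR 12m. Tnf kept state 3 at its TSS bin while its window held 6, 0 and 0 bins in states 1 and 2.

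Il1b and Il6, the cytokines that drive the acute phase, had no bin in states 1 and 2 in any group. All 21 window bins of Il1b were in state 5 in SD 3m and all 21 in state 4 in SD 12m and in CR 12m. Il6 (chr5:30013114-30019975) had its TSS bin in state 5 in SD 3m and in state 8 in both 12-month groups, with 4, 20 and 21 window bins in state 8 and 20%, 0% and 0% of its gene body in states 1 to 5. The poised enhancer state at 3 months was thus followed by the active enhancer state 4 at Il1b and by state 8 at Il6. Across the genome state 5 covered 5.4% of the bins in SD 3m, against 2.7% in SD 12m and 2.39% in CR 12m. Nlrp3, the inflammasome sensor, was in state 3, 4 and 3.

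The Il6 stretch (chr5:30012864-30013113, plus strand) is shown because it holds a match. The Il6 window was the 1 cytokine window that was nearly all unmarked at 12 months. Capitals mark the match to the NF-κB site, 44 bases before the TSS.
Il6: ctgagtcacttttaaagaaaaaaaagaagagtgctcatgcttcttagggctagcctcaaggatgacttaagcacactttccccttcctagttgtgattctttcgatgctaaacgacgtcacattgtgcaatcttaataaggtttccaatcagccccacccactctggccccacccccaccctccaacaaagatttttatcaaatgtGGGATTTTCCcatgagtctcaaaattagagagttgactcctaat

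**Figure D4:**
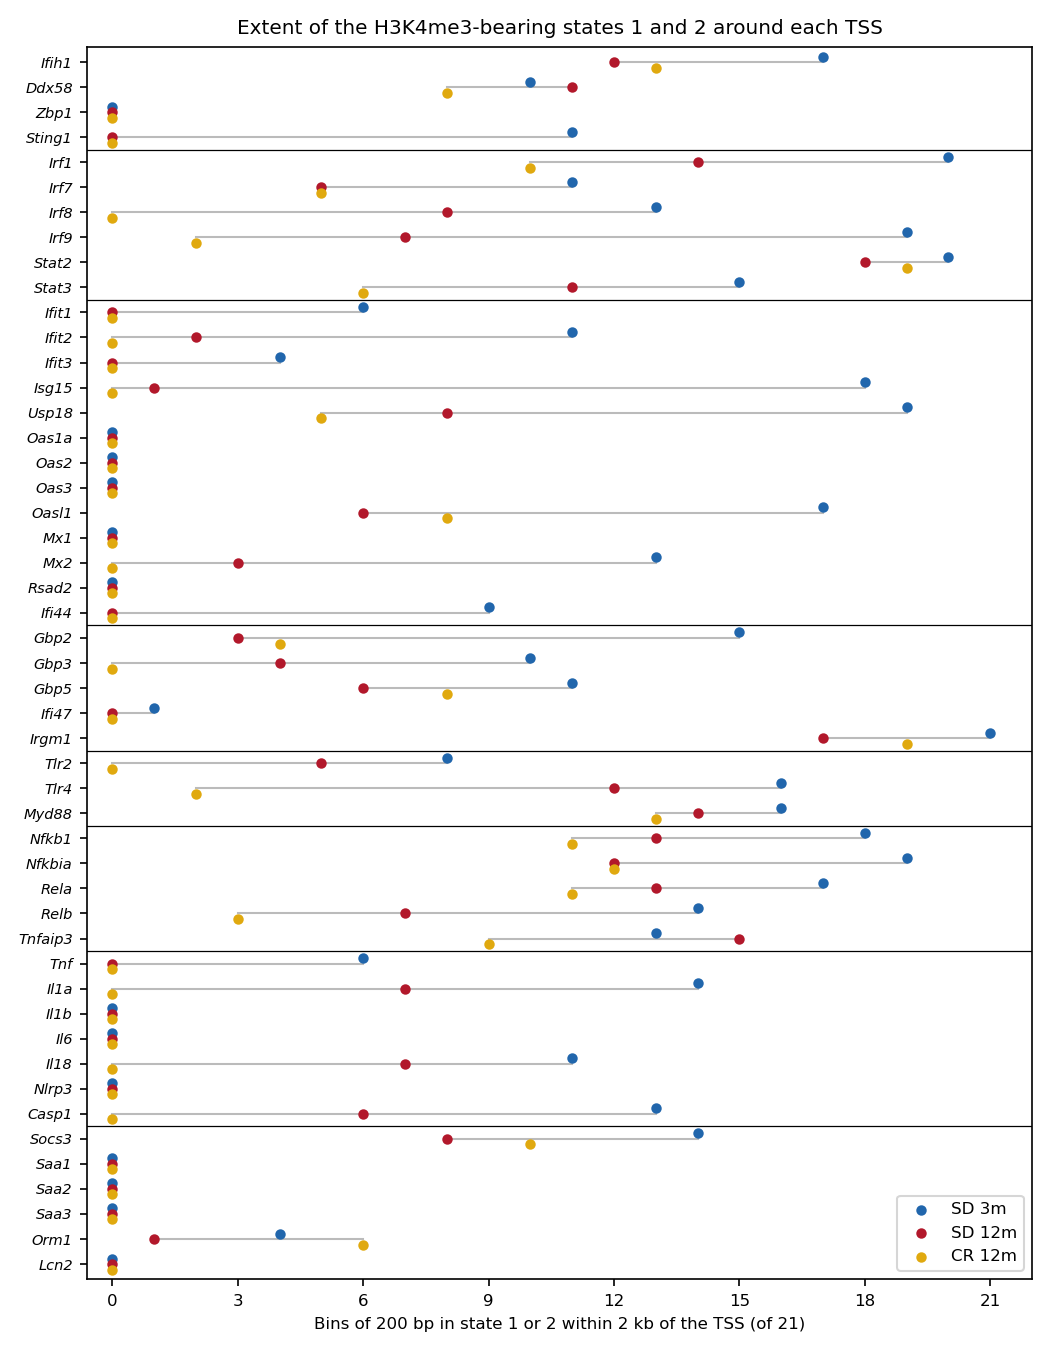
Number of 200 bp bins in state 1 or 2 among the 21 bins within 2 kb of the TSS (horizontal axis), with 1 row per gene, 1 point per group and a grey line from the lowest to the highest value. Black lines separate the role groups. Points of SD 3m lie rightmost for most genes, as for Isg15 with 18, 1 and 0 bins, and those of the cytokine genes in CR 12m all lie at 0.

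Acute phase genes whose TSS class differed did so in the opposite direction, except Socs3. Saa1 and Saa2 encode serum amyloid A, which hepatocytes secrete in large amounts after Il6 and Il1b. Saa1 (chr7:46740497-46742980, minus strand) had its TSS bin in state 8 in SD 3m, in state 5 in SD 12m and in state 4 in CR 12m, and its window held 11, 0 and 0 bins in state 8. States 1 to 5 covered 7.69% of the Saa1 gene body in SD 3m and 100% in both 12-month groups. Saa2 (chr7:46751833-46754313, plus strand) was in state 8 in both standard diet groups and in state 4 in CR 12m, with 12, 12 and 0 window bins in state 8, and states 1 to 5 covered 0%, 0% and 100% of its gene body. They were the only members with a TSS bin in states 6 to 8 in SD 3m and in states 1 to 5 at 12 months, 1 of 4 in SD 12m and 2 of 4 in CR 12m, where 6.23% and 8.12% of all such genes did so. Saa1 and Saa2 resemble each other in sequence. On the gene side of the TSS 67.2% of the words of Saa1 and 67.7% of those of Saa2 occur once in the genome, and as reads that map poorly were removed, the unmarked gene bodies in SD 3m are uncertain for both.

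Saa3 and Lcn2, the latter an iron-binding protein of the acute phase, kept state 3 at their TSS in every group. Lcn2 had all 21 window bins in state 3 in each segmentation, so no window bin of it differed. Of its gene body bins, 18.75% differed from SD 3m in each 12-month group. Orm1, a plasma glycoprotein of hepatocytes, also kept state 3, with 4, 1 and 6 window bins in states 1 and 2. Socs3, which the Il6 signal induces and which then blocks it, was in state 1 in SD 3m and in state 3 in SD 12m and CR 12m, with 14, 8 and 10 window bins.

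A second list of 108 genes from the same pathways, without the 49, was also read. Like the members, it was chosen with earlier results of these data known, so it is not a separate test. Its share of genes that left states 1 and 2 lay above that of all genes, as for the members, but other shares did not. With 5 classes, the class differed in SD 12m at 20.4% of the list, against 28.6% of members and 23.3% of all genes. No window bin in states 1 to 5 was left at 3.81% of its genes with any, in SD 12m and in CR 12m alike. Over all genes these shares were 4.55% and 5.31%, and over the members 8.33% and 10.4%. The TSS bins of the 108 were in states 1 and 2 at 73 genes in SD 3m, compared with 55 in SD 12m and 45 in CR 12m. Of the 73, 19 (26.0%) were outside these states in SD 12m and 32 (43.8%) in CR 12m, against the 16.5% and 25.9% of all genes given above. An enhancer state at the TSS bin under both diets was found at 14 of the 73 (19.2%), against 8 of the 32 members (25%) and 11.6% of all genes in states 1 and 2 in SD 3m. The 14 were the RNA sensor Dhx58 and the kinase Ikbke, the transcription factor Irf5 and the receptor kinase Tyk2, the effectors Ifit3b, Oasl2 and Ifi27, the GTPases Gbp9 and Gbp11, the lipopolysaccharide co-receptor Cd14, the NF-κB kinase Map3k14, the inflammasome adaptor Pycard, the Il18 inhibitor Il18bp and the hepatocyte protein Fgl1. Nlrc4 and Il10 had a TSS bin in state 5 in SD 3m and in state 8 and state 6 at 12 months, respectively. Tnfrsf1b, a receptor for Tnf, was the 1 gene with the opposite order, from state 3 in SD 3m to state 1 under both diets. By role, states 1 and 2 held 16, 13 and 7 of 20 further antiviral effectors. They held 11, 8 and 9 of 12 further transcription factors, and 10, 9 and 6 of 11 further NF-κB genes. Most further antiviral effectors in states 1 and 2 in SD 3m were thus still in them in SD 12m, unlike the antiviral members.

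Promoter sequence was examined from 250 bases before to 50 after the TSS, which RefSeq promoters gave for 39 of the 49 members and for 19069 genes. The ISRE core, read on both strands, was present in 15 of the 39 (38.5%), in 21.8% of the other pathway genes and in 3.36% of all promoters. It was found in 6 of 9 antiviral effectors and in 4 of 5 GTPases. The gamma-activated site TTC, any 3 bases and GAA, which reads alike on both strands, was present in 7 (17.9%), against 8.2% of all, the NF-κB site in 11 (28.2%), against 8.92%, and TATAAA in 13 (33.3%), against 13.1%. Of 10 ISRE-bearing members in states 1 and 2 in SD 3m, 2 (20%) were outside these states in SD 12m and 3 (30%) in CR 12m, near the 19.8% and 28.7% of all genes with the match. Of 16 members whose promoter entry lacks it, 5 (31.2%) and 11 (68.8%) were, against 15.1% and 24.8% of all genes without it. Members without a promoter entry are in neither number. These are counts of letters in a window, and they were not tested.

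The promoters of the members were poor in CpG. The ratio of observed to expected CpG had a median of 0.334 over the 39 members and 0.555 over all promoters. Members in state 2 in SD 3m had a median of 0.397, against 0.673 for all genes in state 2. Of the 17 members below 0.555 that were in states 1 and 2 in SD 3m, 6 (35.3%) had left these states in SD 12m and 12 (70.6%) in CR 12m, and among all genes below 0.555 the shares were 31.7% and 46.2%. Of the 9 members at or above it 1 (11.1%) and 2 (22.2%) had, against 12.1% and 20.8% of all such genes. Within each side of this split, the share of these members in SD 12m was near the background. In CR 12m it was near it for CpG-rich promoters and above it for CpG-poor ones. The split pools starting states 1 and 2, and it leaves out members without a promoter entry. Of those in states 1 and 2 in SD 3m, Usp18 and Nfkb1 stayed in them. Sting1 and Mx2 were outside them under both diets, Relb in SD 12m and Tlr4 in CR 12m. The part of CpG content in the results was not tested.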

How the data were processed

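The authors aligned single-end ChIP-seq reads to mm10 with BWA (0.6.2-r126 per the labels) and used SAMtools 0.1.18. They removed reads that mapped poorly or in duplicate, merged the libraries of each group, and trained a ChromHMM model. The deposited value is the state label of each 200 bp bin, from 1 to 8, not a signal or a count, and depth is unknown. Here the states were read in Python 3.11.15 with numpy 2.4.6 and pandas 2.3.3 and drawn with matplotlib 3.10.9. Each gene was taken as its longest curated RefSeq transcript in GRCm38.p6, the assembly of mm10. The TSS bin, the 21 bins within 2000 bp of it and all bins of the gene body were used, with no filter. Each table's group is the one its name gives. Functions were tested on simulated segmentations.

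The members and the lists were chosen with earlier results of these data known. All members were named. Full values were given where the TSS class (states 1 and 2, 3 to 5, or 6 to 8) differed from SD 3m, and for the 2 members per role with most differing bins. Pathway genes were named where the class differed in the same way in both 12-month groups. Sequences were taken for up to 6 members with an ISRE or NF-κB match. Single libraries and SD 6m were not analysed here.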

Additional observations from a re-analysis of the deposited data

How the results depend on the processing

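Of 66 values of 18 results recomputed under the alternatives, 59 stayed within the limits set for a move and 7 lay outside them. These limits are 1.5 times a count or the Wilson 95% interval of a percent. Among the 59 are the values for the TSS of the most upstream curated transcript. For every member this was the TSS already used, so these values repeat the main ones and test nothing. For a median of percents, the Wilson interval treats the median as a share of genes and does not measure its spread. With the states merged into 5 classes, 14 members (28.6%) differed between SD 12m and SD 3m, against 23 with 8 states, and over all genes 23.3% did, against 32.6%. The median percent of the TSS window in states 1 and 2 in SD 3m was 72.7% within 1 kb and 21.6% within 5 kb of the TSS, against 52.4% within 2 kb, and in SD 12m it was 9.8% within 5 kb, against 19%. Such a percent depends on the width by construction. The mean percent of the gene body in states 1 to 5 was 78.6%, 76.6% and 74.2% in SD 3m, SD 12m and CR 12m, where the median was 100% in each, as members below 100% enter the mean alone. Over protein-coding genes only, 26 of 48 background shares were higher and 18 lower, by at most 4.7 percentage points. Starting states and CpG content were taken apart after the data were seen. No paired analysis was possible because each group has 1 merged segmentation. For the same reason no replicate could be left out. Unknown depth limits every bin without a mark.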

Other observations

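The Mx and Il1 clusters, described above by gene, were also read as regions. The Mx1 and Mx2 region with 5 kb on either side had 15 of 620 bins in states 1 and 2 in SD 3m, compared with 3 in SD 12m and 0 in CR 12m, while enhancer states covered 64.2%, 70.5% and 74.5%. The Il1a and Il1b region had 37 of 408 bins in states 1 and 2 in SD 3m, against 13 in SD 12m and 4 in CR 12m. Across the Saa region, enhancer states covered 83.7% in SD 3m, compared with 85.6% in SD 12m and 95.4% in CR 12m, and states 1 and 2 held 13, 10 and 11 of 263 bins.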
